A study of Mus musculus with 6 samples.

Results

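The miR-106b~25 cluster is a group of microRNAs (miRNAs) that are made from a single intron, and miR-92b is a relative of one of them that lies on another chromosome. The members described here are the guide arms mmu-miR-106b-5p, mmu-miR-93-5p, mmu-miR-25-3p and mmu-miR-92b-3p (without the species prefix from here on), which were found by their identifiers and are 4 of the 902 mature miRNA rows in a table of 61949 annotated rows. Small RNA was sequenced from extracellular vesicles (EVs) in the P100 fraction, the pellet of the last and fastest spin of a serial centrifugation. The tested EVs came from primary cortical astrocytes of CD1 mice (3 libraries). They were set against EVs of primary neural stem cells (NSCs), labeled neonatal, that were cultured from the subventricular zone of CD1 mice (3 libraries). The astrocytes were grown from the dorsal cortex of neonatal pups in the study's methods, and neither the labels nor the methods say that a transgene or a treatment was used for these libraries. The culture of the NSCs, and whether the 3 replicates of each EV type came from separate cultures, are not given in the sources used here. The p-values therefore measure only the spread between these libraries, which may be technical.

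A miRNA is cut from a hairpin as a pair of strands, the 5p and 3p arms. The arm that is usually kept, the guide, pairs with messenger RNAs through its seed, the bases from position 2 to position 8 of its 5′ end, and lowers their translation or stability. The miR-106b~25 cluster is a paralog of the miR-17~92 cluster, and both are known to favor the cell cycle, in part by holding down Cdkn1a, an inhibitor of the kinases that drive it, and proapoptotic genes such as Bcl2l11. In adult mouse neural stem and progenitor cells the cluster is known to promote proliferation, and miR-92b is known as a miRNA that is enriched in neural stem and progenitor cells.

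The sequences are shown first because the members fall into a pair of seed groups that also hold miRNAs of the paralog cluster. They are RefSeq sequences of mouse build GRCm38.p6, and their positions were the same as those in the deposited table (mm10). MiR-106b-5p (chr5:138165787-138165807) and miR-93-5p (chr5:138165574-138165596), both on the minus strand, share a seed with miR-17-5p and miR-20a-5p of the miR-17~92 cluster on the plus strand of chromosome 14. The seed is in capitals, and each is written 5′ to 3′.
miR-106b-5p: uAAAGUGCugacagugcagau
miR-93-5p: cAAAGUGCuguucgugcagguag
miR-17-5p: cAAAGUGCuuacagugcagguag
miR-20a-5p: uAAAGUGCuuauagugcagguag
MiR-106b-5p is the same as miR-93-5p at 16 of the 21 positions compared and the same as miR-17-5p at 18 of 21. RefSeq holds 7 mature mouse miRNAs with this seed, of which 6 are in the count table.

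MiR-25-3p (chr5:138165332-138165353) and miR-92b-3p (chr3:89227126-89227147), both on the minus strand, share another seed with miR-92a-3p of the miR-17~92 cluster. The seed is again in capitals.
miR-25-3p: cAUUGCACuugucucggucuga
miR-92b-3p: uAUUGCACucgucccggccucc
miR-92a-3p: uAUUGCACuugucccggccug
MiR-92b-3p differs from miR-92a-3p at 2 of 21 positions (C10U and C21G, with the base of miR-92b-3p first and positions counted from 1 at the 5′ end) and from miR-25-3p at 6 of 22. RefSeq holds 6 mature mouse miRNAs with this seed, and all 6 are in the count table. The treatment of reads that fit more than 1 place was not stated in the methods read here, so short reads of such close relatives may have been shared between rows.

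The hairpins show where each guide arm lies, since both arms were counted and are described below. Both mature arms are in capitals, and the 5p arm is the first.
mir-106b: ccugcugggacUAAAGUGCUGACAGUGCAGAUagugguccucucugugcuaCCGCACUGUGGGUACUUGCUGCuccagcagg
mir-93: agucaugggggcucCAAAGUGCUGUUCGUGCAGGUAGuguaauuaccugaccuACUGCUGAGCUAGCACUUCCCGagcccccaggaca
mir-25: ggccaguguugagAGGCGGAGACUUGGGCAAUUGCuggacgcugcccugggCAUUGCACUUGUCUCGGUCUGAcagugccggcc
mir-92b: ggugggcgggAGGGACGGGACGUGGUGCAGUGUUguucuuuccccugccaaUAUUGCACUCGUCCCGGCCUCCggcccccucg

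The table held 72359982 to 111851274 counts per astrocyte EV library and 44620985 to 50898531 per NSC EV library. Mature miRNA rows took 182075 to 399211 of these counts in astrocyte EVs, against 177093 to 259560 in NSC EVs. A count of 0 has a 95% upper bound of about 3 counts, which were 7.51 to 16.9 CPM (mature miRNA counts scaled to 1e+06 per library). The member levels below are scaled further between libraries, so these bounds are not on the same scale. Astrocyte EV replicate 3 stood apart from the other libraries of its group. The chi-square per degree of freedom was 295 and 330 between it and the other astrocyte EV libraries, against 20.7 between those 2 and 55.7 to 97.4 between NSC EV libraries. It was at least 5-fold above both other astrocyte EV libraries for 29 of the 256 tested miRNAs (11.3%) and at least 5-fold below both for 35. Messenger RNA fragments of Gfap, an astrocyte marker, were at 1.04 to 4.05 CPM of all non-hairpin rows in astrocyte EVs, against 0.613 to 1.15 in NSC EVs, and the EV types overlapped. Fragments of Slc1a2, the main glutamate transporter of astrocytes, were lower in astrocyte EVs (9.69 to 14.1 CPM) than in NSC EVs (24.3 to 43.6 CPM).

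The comparison asks how the small RNA of astrocyte EVs differs from that of NSC EVs. All 3 guide arms of the miR-106b~25 cluster were lower in astrocyte EVs, and in all 3 the libraries of the EV types did not overlap. MiR-106b-5p had the largest fold change of the 3 and miR-25-3p the smallest. MiR-92b-3p did not pass the test, and its direction rested on astrocyte EV replicate 3. Levels are CPM scaled by TMM, a method that lines up libraries by the bulk of their miRNAs, and fold changes are log2 values of astrocyte EVs minus NSC EVs with their standard errors (SE). Of the 256 miRNAs that passed the low-count filter, 57 were higher and 66 lower in astrocyte EVs at an adjusted p under 0.05 (edgeR quasi-likelihood test, Benjamini-Hochberg over the 256), or 34 higher and 45 lower without NSC EV replicate 2. Thus 25.8% of all tested miRNAs were called lower, and 36.3% were lower with no overlap of the EV types. All 4 members were tested, and 3 were called lower with no overlap. Their median log2 fold change was -1.66, beside -0.06 over all tested miRNAs. With library sizes taken from all non-hairpin rows in place of mature miRNAs, the calls split into 32 higher and 96 lower and the median of all tested miRNAs moved to -0.92, so fold changes on that scale are read relative to that median.

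MiR-106b-5p, which gives the cluster its name, had the fewest counts, with 13, 5 and 21 in astrocyte EV replicates 1 to 3 and 100, 153 and 60 in NSC EV replicates 1 to 3. Its levels were 61.8, 25.2 and 66.1 CPM in astrocyte EVs and 335, 687 and 371 CPM in NSC EVs. The highest astrocyte EV library was thus far below the lowest NSC EV library, although each astrocyte EV value rests on few counts. The means were 51.0 ± 22.5 CPM in astrocyte EVs and 465 ± 194 CPM in NSC EVs (SD, n = 3 each). The log2 fold change was -3.16 (SE 0.58, edgeR adjusted p = 0.00505). By mean level it ranked 207 of the 256 tested miRNAs in astrocyte EVs and 112 in NSC EVs. These levels are shares of the mature miRNA counts and give no absolute amount. Fewer vesicles that hold the miRNA, fewer copies in each, or a larger share of other miRNAs cannot be told apart in these libraries.

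MiR-93-5p, which shares the seed of miR-106b-5p, was more abundant in each library. It had 613, 776 and 1209 CPM in astrocyte EVs and 5214, 3693 and 3007 CPM in NSC EVs. NSC EV replicate 3 was the lowest of its group and was still above all astrocyte EV libraries. The log2 fold change was -2.20 (SE 0.40, edgeR adjusted p = 0.00481), and its mean level ranked 80 in astrocyte EVs and 31 in NSC EVs. Without astrocyte EV replicate 3 it was -2.72, and for miR-106b-5p it was -3.50, both still called (adjusted p = 0.00179 for miR-93-5p and 0.00358 for miR-106b-5p).

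MiR-25-3p, whose seed belongs to the other group, was the most abundant miRNA of the cluster in all 6 libraries. Its levels were 2299, 3356 and 3047 CPM in astrocyte EVs and 7917, 6295 and 4814 CPM in NSC EVs. The EV types did not overlap, and the gap between them was narrower than for the other miRNAs of the cluster. The log2 fold change was -1.13 (SE 0.33, edgeR adjusted p = 0.0264). This call was the least firm of the 3, since it was lost without astrocyte EV replicate 1 (adjusted p = 0.131), astrocyte EV replicate 2 (0.0993), NSC EV replicate 1 (0.162) or NSC EV replicate 2 (0.0650), while the direction stayed. With DESeq2 it was -1.19 with an adjusted p of 0.0531. Where the library sizes came from every non-hairpin row it was -2.03. Relative to the median of all tested miRNAs in the same fit it was -1.07 in the main fit and -1.11 on that scale. Subtracting the median takes out a shift shared by all miRNAs, so the closeness of these values does not test the scaling.

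MiR-92b-3p, made from its own hairpin outside the cluster, behaved otherwise. It had 2067, 3713 and 38765 CPM in astrocyte EVs and 9164, 5913 and 8025 CPM in NSC EVs. Astrocyte EV replicates 1 and 2 were below all NSC EV libraries, and astrocyte EV replicate 3 was above all of them and 10.4-fold above the next astrocyte EV library. The log2 fold change over all 6 libraries was 0.95 (SE 1.01, edgeR adjusted p = 0.467). Without astrocyte EV replicate 3 it was -1.60 (SE 0.43, adjusted p = 0.00983), which is a call in the other direction. MiR-92b-3p was the only member for which that library was at least 5-fold above both others of its group. The summed level of red blood cell miRNAs was also highest in that library (101782 CPM, against 19354 and 40765 CPM in astrocyte EV replicates 1 and 2). Nearly all of this sum was miR-486a-5p (101105 CPM in replicate 3). MiR-451a was highest in replicate 2 (366, 806 and 478 CPM in replicates 1 to 3), and miR-144-3p was near level in replicates 2 and 3 (80.8, 191 and 198 CPM). The summed level of mesenchymal miRNAs was lowest in replicate 3 (6600 CPM, against 91133 and 97249 CPM). MiR-92b-3p was 1 of 29 among the 256 tested miRNAs that were at least 5-fold up in replicate 3. Another was miR-9-5p, which ranked 2 by mean level in NSC EVs. It was at 1245, 1955 and 48244 CPM in astrocyte EVs, against 97177 to 132450 CPM in NSC EVs. The part of any of these miRNAs in the miR-92b-3p level was not tested.

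**Figure D1:**
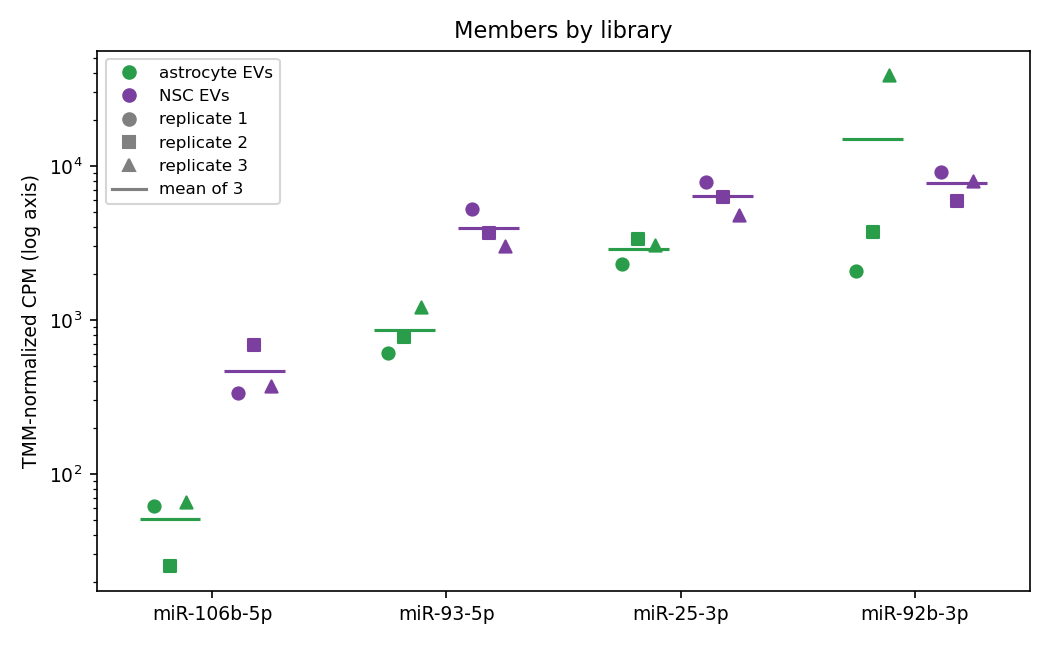
Levels of the 4 members in each library, as TMM-normalized CPM on a log axis, with astrocyte EVs in green at the left of each pair, NSC EVs in purple at the right, replicates as circle, square and triangle, and the mean as a line. The green and purple points do not overlap for miR-106b-5p, miR-93-5p and miR-25-3p, whereas the green triangle of miR-92b-3p, at 38765 CPM, lies above all NSC EV libraries.

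In order of level, miR-106b-5p was below miR-93-5p, and miR-93-5p below miR-25-3p, in each of the 6 libraries. MiR-25-3p and miR-92b-3p, which are of the same length, were not separated, since their ranges overlapped in both EV types. Over the 6 libraries of both EV types, Pearson correlations of log2(CPM + 1) were 0.961 between miR-93-5p and miR-25-3p, 0.903 between miR-106b-5p and miR-93-5p and 0.806 between miR-106b-5p and miR-25-3p. Between miR-92b-3p and the others they were 0.138 to 0.318. These points share the same libraries, and they fall into the 2 EV types. Within an EV type miR-106b-5p did not follow the others. In NSC EVs it was lowest in replicate 1 (335 CPM), where miR-93-5p was highest (5214 CPM). In astrocyte EVs it was lowest in replicate 2 (25.2 CPM), where miR-25-3p was highest (3356 CPM). MiR-93-5p and miR-25-3p had the same order of libraries in NSC EVs but not in astrocyte EVs.

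The cluster as a whole took a smaller share of the mature miRNA counts in astrocyte EVs. Its 3 guide arms were 0.344% (95% Wilson interval 0.318 to 0.372), 0.394% (0.368 to 0.422) and 0.344% (0.326 to 0.363) of the counts in astrocyte EV replicates 1 to 3. In NSC EV replicates 1 to 3 they were 1.55% (1.5 to 1.60), 1.17% (1.12 to 1.22) and 0.748% (0.709 to 0.789). The astrocyte EV libraries lay close together, replicate 3 included, while the NSC EV libraries were spread more widely. These intervals cover counting error only, since reads amplified by PCR are not independent molecules.

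The makeup of the cluster also differed. MiR-25-3p held 77.3%, 80.7% and 70.5% of the counts of the 3 guide arms in astrocyte EVs, and 58.8%, 59.0% and 58.8% in NSC EVs. MiR-93-5p held 20.6%, 18.7% and 28.0% in astrocyte EVs and 38.7%, 34.6% and 36.7% in NSC EVs. MiR-106b-5p held at most 2.08% in astrocyte EVs, against 2.49% to 6.44% in NSC EVs. MiR-25-3p thus took more of the cluster in every astrocyte EV library than in any NSC EV library, and both miRNAs of the other seed took less.

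**Figure D2:**
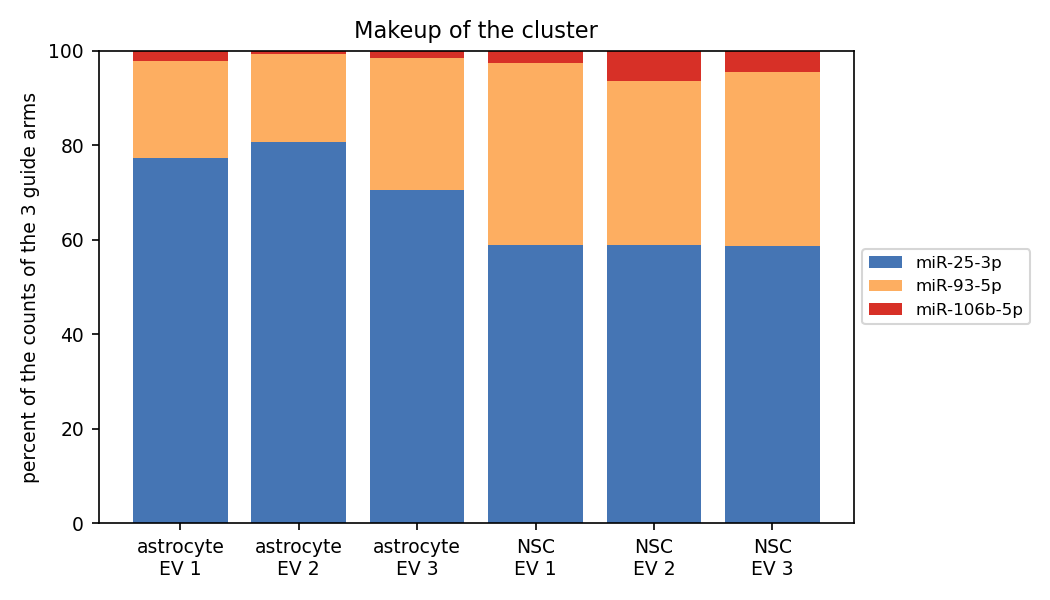
Share of miR-25-3p (blue), miR-93-5p (orange) and miR-106b-5p (red) in the counts of the 3 guide arms, in percent, for each astrocyte EV library (left) and NSC EV library (right). The blue part is 70.5% to 80.7% in astrocyte EVs, against 58.8% to 59.0% in NSC EVs.

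Ratios of a pair of miRNAs within a library need no scaling between libraries, and 8 such pairs were set against each other with a two-sided exact permutation test. With 3 libraries in each EV type, p cannot go below 0.1. The ratio of miR-25-3p to miR-93-5p was 2.52 to 4.31 in astrocyte EVs, against 1.52 to 1.70 in NSC EVs, a difference of 1.10 on the log2 scale with no overlap (exact p = 0.1, adjusted over the 8 pairs 0.16). The ratio of miR-25-3p to miR-106b-5p was 35.9 to 121 in astrocyte EVs, against 9.13 to 23.5 in NSC EVs, also with no overlap (log2 difference 2.05, exact p = 0.1, adjusted 0.16). The 2 miRNAs that share a seed, miR-106b-5p and miR-93-5p, had overlapping ratios (log2 difference -0.95, exact p = 0.2, adjusted 0.229). For miR-92b-3p to miR-25-3p the log2 difference was 0.93 with overlap (exact p = 0.9, adjusted 0.9), and it was -0.29 without astrocyte EV replicate 3. None of these ratios can pass 0.05 by this exact test.

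The other arms of the hairpins were counted as well. For mir-106b the 3p arm, usually the passenger, had more counts than the guide in every library. MiR-106b-3p had 55, 50 and 80 counts (261, 252 and 252 CPM) in astrocyte EVs and 239, 159 and 146 counts (801, 714 and 903 CPM) in NSC EVs. The EV types did not overlap, and the log2 fold change was -1.66 (SE 0.35, edgeR adjusted p = 0.00695), a call that was lost with no low-count filter (adjusted p = 0.0783). The 3p arm was 80.9%, 90.9% and 79.2% of the reads of both arms in astrocyte EVs and 70.5%, 51.0% and 70.9% in NSC EVs, which did not overlap and was not tested. The 95% Wilson interval of the lowest astrocyte EV share, 70.3% to 86.0%, overlapped those of NSC EV replicates 1 and 3.

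Reads of the other hairpins came almost wholly from the guide arm. MiR-93-3p had 0, 0 and 11 counts in astrocyte EVs and 8, 7 and 0 in NSC EVs, and miR-25-5p had 2, 0 and 0 in astrocyte EVs and 0, 7 and 4 in NSC EVs. Both were below the low-count filter. MiR-92b-5p had 0, 0 and 383 counts in astrocyte EVs and 54, 5 and 48 in NSC EVs, with a log2 fold change of 1.29 (SE 1.93, edgeR adjusted p = 0.600). Both arms of mir-92b were therefore highest in astrocyte EV replicate 3, where the guide held 97.0% of their reads, within the 96.4% to 99.6% of NSC EVs.

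Among the relatives with a shared seed, 3 of 8 passed the low-count filter, and 2 were called lower with none higher. Over all 256 tested miRNAs, 25.8% were called lower. MiR-17-5p had 7, 15 and 45 counts in astrocyte EVs and 466, 730 and 354 in NSC EVs, with a log2 fold change of -4.78 (SE 0.64, edgeR adjusted p = 0.00207), or -5.58 without astrocyte EV replicate 3. MiR-20a-5p had 3, 12 and 13 counts in astrocyte EVs and 306, 517 and 288 in NSC EVs, with a log2 fold change of -5.45 (SE 0.65, edgeR adjusted p = 0.00159). Both are guides of the miR-17~92 cluster, and their fold changes were larger in size than those of miR-106b-5p and miR-93-5p. The within-library ratio of miR-106b-5p to miR-17-5p was 0.355 to 1.80 in astrocyte EVs, against 0.171 to 0.215 in NSC EVs (log2 difference 1.76, exact p = 0.1, adjusted 0.16), and the log2 difference was 1.05 without astrocyte EV replicate 1. That of miR-93-5p to miR-20a-5p was 12.4 to 37.0 in astrocyte EVs, against 1.59 to 5.08 in NSC EVs (log2 difference 3.30, exact p = 0.1, adjusted 0.16).

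MiR-92a-3p, the miR-17~92 guide with the seed of miR-25-3p and miR-92b-3p, was not called. It had 55, 116 and 539 counts in astrocyte EVs and 87, 53 and 74 in NSC EVs, with a log2 fold change of 1.37 (SE 0.70, edgeR adjusted p = 0.143). It was 0.23 without astrocyte EV replicate 3 and 1.93 without astrocyte EV replicate 1, and in that last fit it passed (adjusted p = 0.0451). The ratio of miR-25-3p to miR-92a-3p was 1.80 to 8.73 in astrocyte EVs, against 10.4 to 27.0 in NSC EVs (log2 difference -2.12, exact p = 0.1, adjusted 0.16), with no overlap, and the log2 difference was -1.46 without astrocyte EV replicate 3. That of miR-92b-3p to miR-92a-3p overlapped, at 6.33 to 22.8 in astrocyte EVs, against 17.4 to 31.2 in NSC EVs (log2 difference -1.19, exact p = 0.2, adjusted 0.229). MiR-20b-5p, miR-106a-5p, miR-32-5p, miR-363-3p and miR-367-3p had at most 8 counts in any library and were not tested.

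Of the other miRNAs of the paralog clusters, 3 of 4 were tested and all 3 were called lower, beside 25.8% of all 256 tested miRNAs. MiR-19b-3p, a miRNA of miR-17~92, had 17, 4 and 16 counts in astrocyte EVs and 83, 204 and 68 in NSC EVs, with a log2 fold change of -3.40 (SE 0.71, edgeR adjusted p = 0.00695). MiR-18a-5p had 0 counts in all 3 astrocyte EV libraries and 21, 32 and 16 in NSC EVs. MiR-19a-3p had 0, 2 and 0 counts in astrocyte EVs and 22, 57 and 27 in NSC EVs. MiR-18b-5p, at 3 counts or fewer, was not tested.

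**Figure D3:**
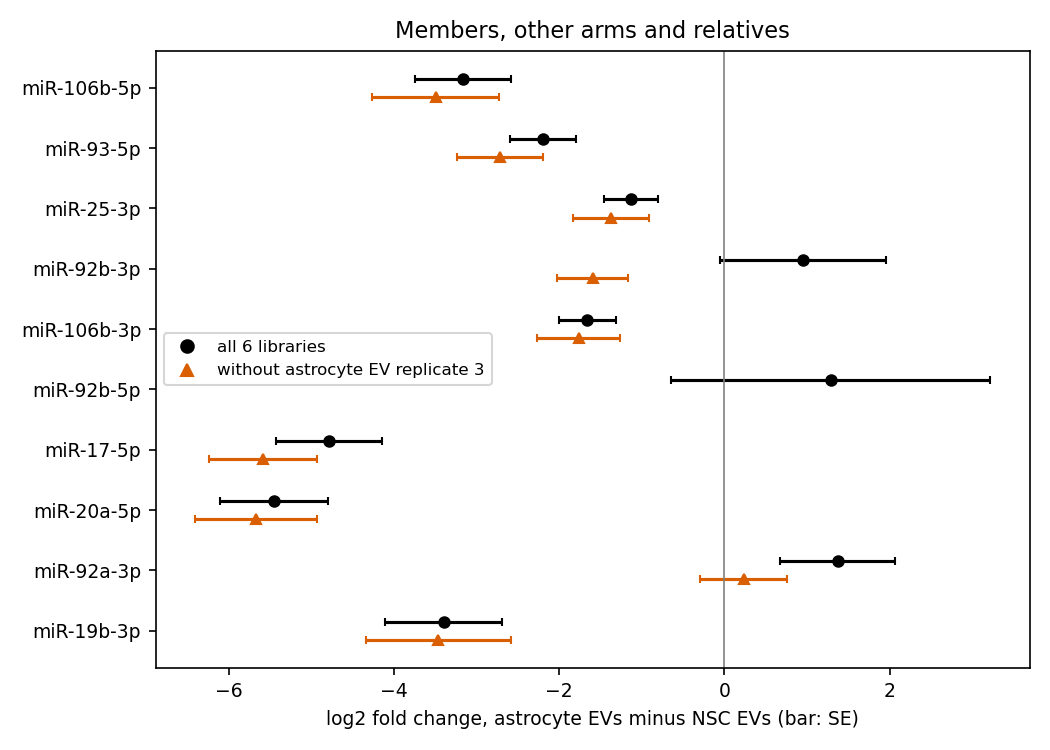
Log2 fold change, astrocyte EVs minus NSC EVs, with its SE as a bar, for the members, their tested other arms and the tested relatives, from all 6 libraries (black circles) and without astrocyte EV replicate 3 (orange triangles). MiR-18a-5p and miR-19a-3p, and miR-92b-5p without that library, are left out because the astrocyte EV libraries had 2 counts or fewer. Only miR-92b-3p moves across 0, from 0.95 in black to -1.60 in orange.

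The share of miR-93-5p in its seed group did not overlap between the EV types, whereas the shares of miR-106b-5p, miR-25-3p and miR-92b-3p in theirs did. All listed miRNAs with the seed of miR-106b-5p and miR-93-5p together were 0.0835%, 0.0955% and 0.116% of the mature miRNA counts in astrocyte EVs and 0.939%, 1.10% and 0.672% in NSC EVs. MiR-93-5p was 84.9%, 77.0% and 82.9% of that group in astrocyte EVs and 63.8%, 36.7% and 40.8% in NSC EVs, where miR-17-5p and miR-20a-5p made up most of the rest. MiRNAs with the seed of miR-25-3p and miR-92b-3p were 0.535%, 0.728% and 3.46% in astrocyte EVs and 2.0%, 1.36% and 1.21% in NSC EVs. MiR-92b-3p was 44.7%, 48.4% and 89.1% of this group in astrocyte EVs and 52.7%, 47.4% and 60.4% in NSC EVs. The first seed was thus lower in all astrocyte EV libraries, and the second was lower in replicates 1 and 2 and higher in replicate 3.

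**Figure D4:**
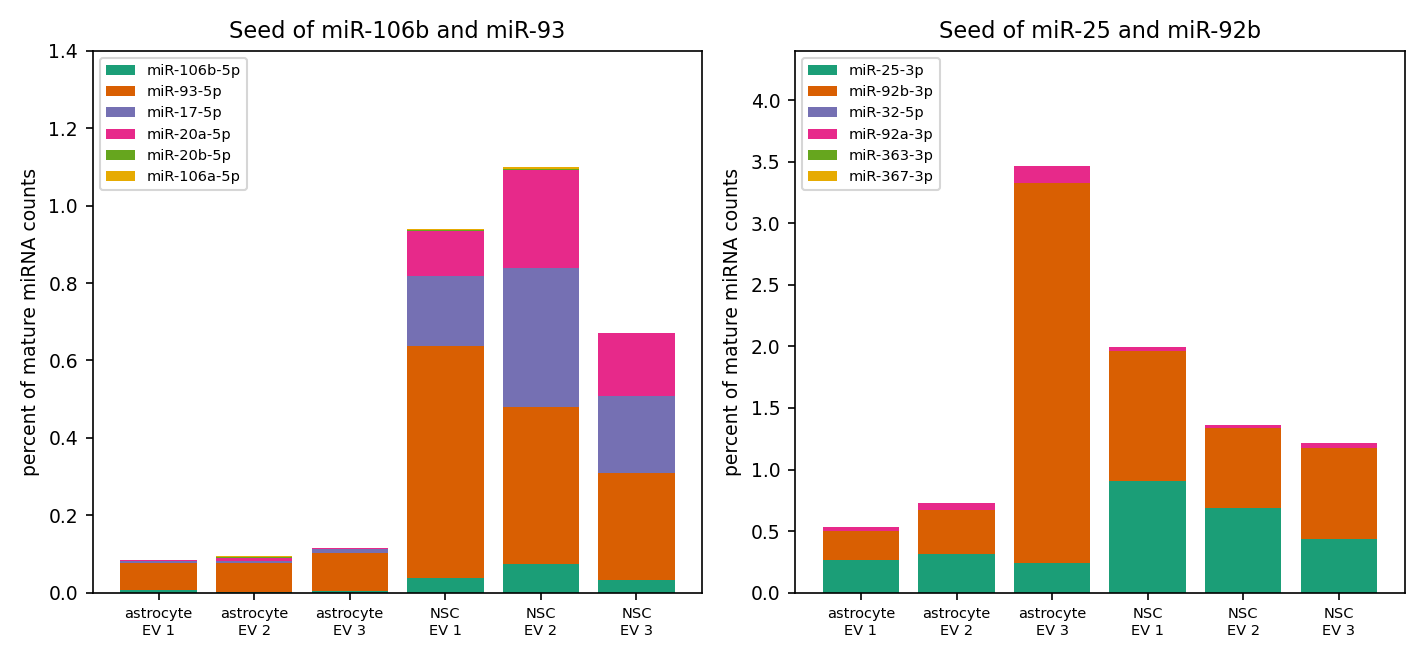
Percent of mature miRNA counts taken by miRNAs with the seed of miR-106b and miR-93 (left panel) and of miR-25 and miR-92b (right panel), stacked by miRNA, with astrocyte EV libraries at the left and NSC EV libraries at the right of each panel. The left panel reaches 0.116% in astrocyte EVs and 1.10% in NSC EVs, and in the right panel astrocyte EV replicate 3 stands highest at 3.46%.

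The 3 hairpins of the cluster span 498 bases (chr5:138165321-138165818, mm10) in intron 13 of Mcm7, on the same strand as the gene (GENCODE vM21). The intron is 748 bases long, and the transcript has 15 exons. Mcm7 is a subunit of the MCM helicase, which unwinds DNA at replication forks, and is used by dividing cells. The table also has a row for Mcm7, with 707, 900 and 1591 counts in astrocyte EVs and 4283, 2576 and 1504 in NSC EVs, and its log2 fold change was -1.75 (SE 0.43, edgeR adjusted p = 0.0426 over 41308 non-hairpin rows, of which 4.24% were called lower). That call was lost when any 1 of the 6 libraries was left out (adjusted p = 0.0564 to 0.132).

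Nearly all of the Mcm7 row was the cluster itself. The counts of the mir-106b, mir-93 and mir-25 hairpin rows came to 96.6%, 97.2% and 92% of the Mcm7 row in astrocyte EVs and 99.6%, 99.0% and 98.0% in NSC EVs. Less these reads, the row held 24, 25 and 127 counts in astrocyte EVs and 19, 27 and 30 in NSC EVs, with a log2 fold change of 0.54 (SE 0.44, edgeR adjusted p = 0.461). The Mcm7 row was thus mostly a second count of the reads of the miRNAs. This subtraction was chosen after seeing the data.

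**Figure D5:**
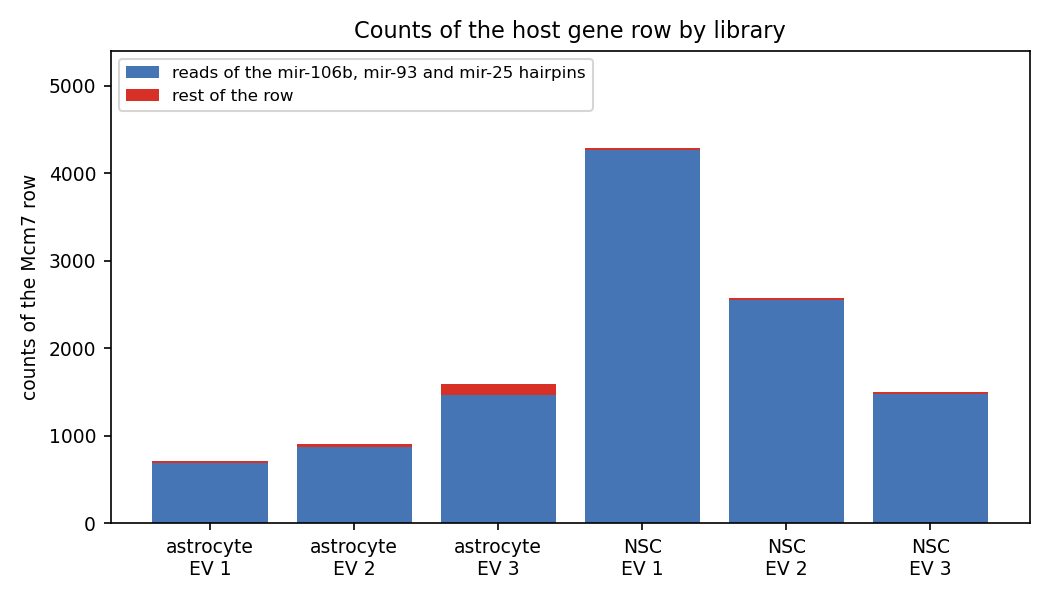
Counts of the Mcm7 row in each astrocyte EV library (left) and NSC EV library (right), divided into reads of the 3 cluster hairpins (blue) and the rest of the row (red). The red part is 24 to 127 counts in astrocyte EVs, against 19 to 30 in NSC EVs.

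Of the other subunits of the helicase, only Mcm4 passed the test. Its row had 85, 133 and 682 counts in astrocyte EVs and 20, 18 and 45 in NSC EVs, with a log2 fold change of 2.64 (SE 0.55, edgeR adjusted p = 0.0280), which was the opposite direction from the Mcm7 row. The call was lost without any 1 library other than astrocyte EV replicate 3 (adjusted p up to 0.0759). Mcm2, Mcm3, Mcm5 and Mcm6 had log2 fold changes of 0.06, -0.19, -0.31 and -0.07, none of them called.

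Hairpin mir-92b (chr3:89227116-89227198, minus strand, mm10) overlapped no row of the table other than those of the miRNA itself, and no gene in GENCODE vM21 other than Mir92b. The nearest rows were Thbs3, which encodes an extracellular thrombospondin, at 278 bases, and Muc1, a cell surface mucin, at 1853 bases. Both are annotated on the plus strand.

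Other miRNAs with a like pattern were taken as the 3 tested miRNAs with the highest Pearson correlation of log2(CPM + 1) with each member over the 6 libraries. Being picked as the highest among all tested miRNAs, these values are no test of likeness. A shared difference between the EV types can alone give a high value. For miR-106b-5p they were miR-301a-3p (0.990), miR-19b-3p (0.988) and miR-181a-1-3p (0.968). For miR-93-5p they were miR-181b-5p (0.991), the endothelial miR-126a-3p (0.974) and miR-135a-1-3p (0.974). For miR-25-3p they were miR-344d-3p (0.988), miR-409-3p (0.966) and miR-93-5p itself (0.961). The highest correlations of miR-92b-3p were with miR-449a-5p (0.943), known from multiciliated cells, miR-129-5p (0.901), known from neurons, and its own other arm miR-92b-5p (0.900). MiR-449a-5p was at 19.0, 80.6 and 7852 CPM in astrocyte EVs and 1029, 1042 and 736 CPM in NSC EVs, so it too was high in astrocyte EV replicate 3 and low in the other astrocyte EVs.

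Markers of other cell types moved with the EV type, in a comparison where 57 of all 256 tested miRNAs were called higher and 66 lower. Red blood cell miRNAs (miR-451a, miR-144-3p and miR-486a-5p) summed to 19354 to 101782 CPM in astrocyte EVs, against 930 to 1633 CPM in NSC EVs, with 3 of 3 called higher and miR-451a at 0 in all NSC EVs. Mesenchymal miRNAs summed to 6600 to 97249 CPM in astrocyte EVs, against 860 to 1861 CPM in NSC EVs, with both of the 2 tested of 4 called higher and miR-214-3p at 0 in all NSC EVs. Those of microglia and white blood cells summed to 988 to 3214 CPM in astrocyte EVs, against 179 to 306 CPM in NSC EVs, with miR-142a-3p and miR-223-3p at 0 in all NSC EVs. MiR-124-3p, which is made by neurons, was at 0 in all astrocyte EVs and at 154 to 705 CPM in NSC EVs, and miR-126a-3p of endothelial cells was at 0 to 12.6 CPM in astrocyte EVs, against 229 to 436 CPM in NSC EVs. In an alternative added after seeing the data, red blood cell miRNAs and the mesenchymal miR-143-3p, miR-199a-3p and miR-199b-3p were taken out of the table. The mesenchymal miR-145a-5p and miR-214-3p, both below the low-count filter, were not taken out. MiR-106b-5p, miR-93-5p and miR-25-3p were still called lower (edgeR adjusted p = 0.0392 for miR-25-3p). What these cell types add to the levels of the members was not tested, nor was RNA from the serum in the astrocyte medium.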

How the data were processed

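Small RNA of 6 EV libraries was counted by the authors. Per the submitters' processing notes, the tools were Bowtie, Bowtie2, cutadapt, bedtools, SAMtools, FastQC and DESeq on mm10, with versions not given. The deposited table holds raw counts, whole numbers with no normalization, for 61949 rows. The authors' tables of group means, log2 fold changes and adjusted p-values were not used. A total of 0 sample columns could not be matched, and no 2 libraries of the same EV type were alike within sampling noise.

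Mature miRNA rows (902) were analyzed apart from the 788 hairpin rows, which hold the same reads. The test was edgeR 4.0.16 in R 4.3.3 (TMM, filterByExpr by group, quasi-likelihood fit with group as its only term, Benjamini-Hochberg adjustment), with calls at an adjusted p under 0.05. The script was tested on simulated data with less spread between replicates than these libraries had, so that test gives no error rate for the calls here. TMM factors ran from 0.796 to 1.16. Depth, as 177093 to 399211 mature miRNA counts per library, limits the precision of rare miRNAs. Mcm rows were tested over all non-hairpin rows. Ratios used 0.5 added counts. Python 3.11.15, scipy 1.17.1 and matplotlib 3.10.9 gave the remaining values.

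The members and lists were chosen with earlier results of these data known. Named were the members, their other arms, seed relatives, paralog cluster miRNAs, Mcm2 to Mcm7, rows that overlap a member, and the 3 closest patterns. The rule did not hold Thbs3, Muc1 or the antisense rows, whose values had been seen when they were added. Alternatives were DESeq2 1.42.0, other scalings and filters, robust estimation, left-out red blood cell or let-7 miRNAs, rows of identical counts taken once, hairpin rows, each library left out, a replicate block and 1 added count in ratios. The Mcm7 row less hairpin reads, and the table without red blood cell miRNAs and part of the mesenchymal miRNAs, were added after seeing the data.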

Additional observations from a re-analysis of the deposited data

How the results depend on the processing

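MiR-106b-5p and miR-93-5p stayed lower and called in 19 of 19 alternatives each, 1 of which took the hairpin row in place of the arm (-1.92 for mir-106b, most of whose reads were of the 3p arm, against -3.16 for miR-106b-5p). MiR-25-3p stayed lower in all 19 and lost its call in 8, with log2 fold changes of -1.19 with DESeq2 (adjusted p = 0.0531), -1.06 with no low-count filter (0.198), -1.02 without the let-7 family (0.0613) and -1.11 with the replicate block (0.0721). The other 4 were fits with a library left out. Over all 6 such fits it ran from -1.37, without astrocyte EV replicate 3 and still called, to -0.72. MiR-92b-3p was at -0.27 with the replicate block and ran from -1.60 to 1.62 with each library left out, and DESeq2 gave it no adjusted p. MiR-92b-5p was at -1.80 with the replicate block and ran from -8.13 to 2.05 with each library left out, where the lowest value is a fit against 0 counts and no bound. The ratio of miR-92b-3p to miR-25-3p ran from -0.29 to 1.62. The calls were 32 higher where every non-hairpin row counted toward library size and 34 to 69 higher with each library left out. The Mcm7 row was at 0.54 less its hairpin reads and ran from -2.05 to -1.26. Mcm2 was at -0.39 without TMM and ran from -0.046 to 0.13, and Mcm6 ran from -0.47 to 0.12. Apart from the Mcm7 row, where the subtraction removes the miRNA reads, the cause was not tested. Libraries with the same replicate number correlated at 0.06, 0.14 and 0.07 in their deviations, so the numbers were not taken to pair them, although each correlated best with its own number. The replicate block gave 45 higher and 55 lower. Among the members depth limits miR-106b-5p most, with 5 to 21 counts in astrocyte EVs.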

Other observations

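Reads from the strand opposite to the host and neighbor genes were counted in rows of their own. The antisense row of Mcm7, which spans the cluster, had 81, 192 and 402 counts in astrocyte EVs and 16, 14 and 32 in NSC EVs, with a log2 fold change of 2.86 (SE 0.46, edgeR adjusted p = 0.0167), so it was higher in astrocyte EVs while the miRNAs of the cluster were lower. Near mir-92b, the Thbs3 row had 171, 278 and 352 counts in astrocyte EVs and 645, 2137 and 516 in NSC EVs, with a log2 fold change of -2.31 (SE 0.55, edgeR adjusted p = 0.0389). The antisense row of Thbs3, on the strand of mir-92b, had 1152, 1241 and 556 counts in astrocyte EVs and 47, 73 and 35 in NSC EVs, with a log2 fold change of 4.29 (SE 0.71, edgeR adjusted p = 0.0178). Astrocyte EV replicate 3, the library with the highest miR-92b-3p, had the lowest count of its group in this row. These rows were chosen after their values were seen.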
